A study of Mus musculus with 4 samples.

Results

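The myogenic transcription factors examined here were Myod1, Myf5, Myf6, Myog, Pax7, Mef2a, Mef2c, Mef2d and Six4. They were found by gene symbol, and all 9 had a value in every sample, out of 20340 gene labels with a value in all 4 samples. The study sequenced mRNA of muscle from wild-type C57BL/6 mice, with 2 samples at 20 months of age (Old 1 and Old 2) and 2 samples at 3 months (Young 1 and Young 2). The methods give the muscle as the tibialis anterior (TA), while the labels say only muscle. The methods state that sex was left to chance and speak of independent mice and sequencing experiments, but which mice, or how many, went into each of these samples is not given in the sources used here, so each p-value measures only the spread between these samples, which may be technical. Desmin, the muscle intermediate filament gene, was read from a locus it shares with Speg, at 2379 and 624 FPKM in the old samples and 541 and 1938 FPKM in the young samples. Ckm, the muscle creatine kinase gene, was listed at 0 in all 4 samples, although every TA muscle uses it, so an exact 0 in these tables can be a failed estimate.

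Skeletal muscle identity is set by the myogenic regulatory factors MyoD, Myf5, Mrf4 (gene Myf6) and myogenin (gene Myog), basic helix-loop-helix (bHLH) proteins that bind E-box DNA together with E proteins. MEF2 proteins bind AT-rich sites beside them and cooperate on muscle genes, and homeobox proteins such as Six4 bind MEF3 sites and act upstream of the myogenic regulatory factors. Pax7 marks the satellite cells, the stem cells of adult muscle, whereas Myf6 and the MEF2 genes are active in the myonuclei of mature fibers.

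The promoters of Myog and Mef2c are shown because they hold the binding motifs of the other factor families and because Mef2c was the member with the largest old to young difference. Both are the 250 bases before a RefSeq start site (GRCm38.p6), on the plus strand, written 5′ to 3′. Capitals mark the motifs searched on both strands, which were the E-box (CANNTG), a MEF2-type site (CTANNNNTA) and the MEF3 site (TCAGGTT).
Myog, chr1:134289754-134290003: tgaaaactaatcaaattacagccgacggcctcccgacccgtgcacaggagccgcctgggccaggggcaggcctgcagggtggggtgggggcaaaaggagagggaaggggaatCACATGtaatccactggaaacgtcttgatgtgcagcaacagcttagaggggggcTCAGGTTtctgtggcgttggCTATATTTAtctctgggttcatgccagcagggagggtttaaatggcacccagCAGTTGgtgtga
Mef2c, chr13:83503784-83504033: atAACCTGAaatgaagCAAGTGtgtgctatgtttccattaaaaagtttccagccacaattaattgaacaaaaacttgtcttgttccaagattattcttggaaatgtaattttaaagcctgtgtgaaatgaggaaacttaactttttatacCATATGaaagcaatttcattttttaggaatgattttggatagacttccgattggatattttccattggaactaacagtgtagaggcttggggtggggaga

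The Myog window held all 3 motifs, in the order E-box, MEF3, MEF2-type and E-box toward the start site. Of 32851 promoter windows of the same length, 66.2% held an E-box, 19.0% a MEF2-type site and 3.49% a MEF3 site, and 0.527% held all 3. The Mef2c window held a MEF3 match on the minus strand and 2 E-boxes but no MEF2-type site, and 2.40% of all windows held an E-box together with a MEF3 match. Its GC content was 33.6%, against 56.4% for Myog. Mef2c has 2 further RefSeq start sites in the table, of which the start at position 83573607 had an E-box and a MEF2-type match and the start at position 83523656 had none of the motifs. In the other windows of the members, Myf5 had 2 overlapping MEF2-type matches on opposite strands, and Six4 had a MEF3 match before its start at position 73113245. None of the 3 motifs was in the windows of Pax7, Mef2a, Mef2d or the other start of Six4, and Myod1 and Myf6 had no entry. A match is a run of letters and was not tested for binding.

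The values were FPKM (fragments per kilobase of transcript, scaled to the mapped fragments of the library), which allow levels to be compared between genes within a sample. The libraries of an age were on scales about 2 times apart: the median log2 ratio was 1.11 for Old 1 to Old 2 and 1.08 for Young 2 to Young 1. For genes between 10 and 30 FPKM, the spread of the log2 ratio (a robust SD) was 0.0664 for Old 1 to Old 2 and 0.0685 for Young 2 to Young 1, against 0.398 for Old 1 to Young 2 and 0.399 for Old 2 to Young 1. At 1 to 3 FPKM, closer to Myog, Six4 and the lowest members, the median log2 ratios within an age were 1.48 and 1.43 and the spreads were 0.397 and 0.396, against 0.467 and 0.584 between the ages. Old 1 and Young 2 therefore had the higher values and Old 2 and Young 1 the lower ones, and the old to young ratio is given below within each of these pairs of like scale, with medians over all genes of -0.01 and -0.02 on the log2 scale. These pairs were set by the scale of the values and not by the animals, and because samples of an age differed by so even a factor at these levels, both ratios pointing one way is not independent replication. Wherever a pair of values is given for an age, sample 1 comes before sample 2. Read depth is unknown from FPKM, so no counting interval is given.

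The same order of levels held for most members in all 4 samples. By FPKM, Mef2d, Myf6 and Mef2a were high in every sample, Myod1 was intermediate, Six4 and Myog were lower, and Myf5 and Pax7 were lowest among the members with a value above 0. Mef2d exceeded between 90.3% and 94.8% of the genes above 0 in a sample, and Myf6 between 90.1% and 92.5%. Mef2c ranked first in both old samples, behind Mef2d and Myf6 in Young 2, and last in Young 1, where it was listed at 0. Neighbours in this order were close: Six4 and Myog differed by a ratio of 1.10 to 1.22 within a sample, and Myf5 and Pax7 changed places between samples.

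**Figure D1:**
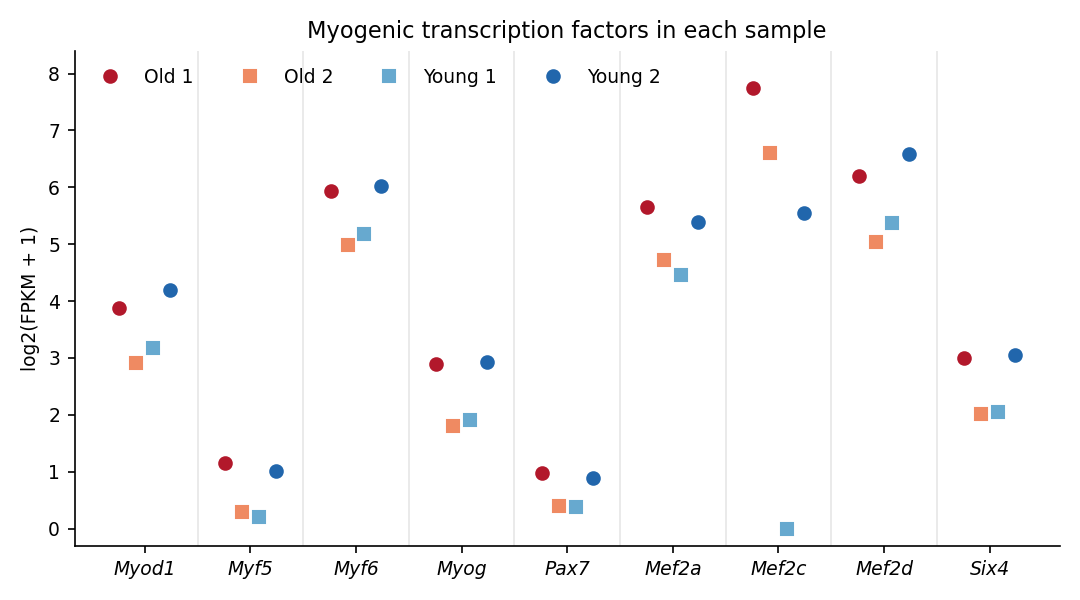
Level of each myogenic transcription factor in each sample, as log2(FPKM + 1) on the vertical axis; each point is 1 sample, red and orange for the old and light and dark blue for the young samples. For 8 members the old and young points overlap, and Mef2c is the member for which both old points lie above both young points, with Young 1 at 0.

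Whether age changed the level of each factor was tested with limma on log2(FPKM + 1), over 10266 genes that reached 1 FPKM in at least 2 samples. All 9 members except Pax7 were among them. Mef2c was called higher in old muscle, and the other 7 tested members were not called. Over all tested genes, 0.175% were called higher and 0.127% were called lower. For those 7 members the log2 fold change lay between -0.36 and 0.26, with SE between 0.93 and 1.02 and a limma adjusted p of 1.00 each. The median SE over all tested genes was 0.98, close to the log2 difference between samples of an age, so changes of this size were not detectable in this fit. By sample values, old and young overlapped for 8 members, each with an exact two-sided permutation p of 0.667, and 0.333 is the smallest p that 2 against 2 samples allow.

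Scaling each sample by its median ratio to the others, an alternative chosen after seeing the data, left 0 members called by limma, with 2 members, Myod1 and Mef2d, at an unadjusted p below 0.05. Such unadjusted values were common in that fit, with 1183 of the 10266 tested genes higher and 1328 lower at an unadjusted p below 0.05. In that fit 0.594% of all tested genes were called higher and 0.731% lower. A fit with each pair of like scale as a block called 3 members, Mef2a higher and Myod1 and Mef2d lower, but it also called 27.4% of all tested genes higher and 32.9% lower, a larger share than among the members.

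Myod1 encodes MyoD, which commits cells to the muscle lineage. Its locus is on chromosome 7 from 46376474 to 46379092 (mm10, plus strand) and has 3 exons. It measured 13.7 and 6.52 FPKM at 20 months and 8.07 and 17.3 FPKM at 3 months, so each old sample was below the young sample with values of like scale (Old 1 below Young 2, Old 2 below Young 1). The ratio was 0.790 for Old 1 to Young 2 and 0.808 for Old 2 to Young 1, and 77.3% and 72.4% of tested genes had a ratio at or above these. The limma log2 fold change was -0.30 (SE 0.95, n = 2 per age), with an adjusted p of 1.00.

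Myf5 and Myf6 are neighbours on chromosome 10, both on the minus strand with 3 exons. Their loci as listed run from 107482908 to 107486134 for Myf5 and from 107491512 to 107495000 for Myf6, with 5377 bases between these loci. The annotated Myf6 gene is shorter than its locus, from 107492853 to 107494737. Myf5, an early factor of myoblasts and satellite cells, was low, with 1.21 and 0.231 FPKM at 20 months and 0.146 and 1.01 FPKM at 3 months. Its ratios of 1.20 and 1.59 were both above 1, and 26.6% and 7.66% of tested genes lay at or above them. However, the difference between samples of an age, from 0.231 to 1.21 FPKM in old muscle, was far larger. Myf6, which encodes Mrf4, the factor typical of mature fibers, measured 60.2 and 30.8 FPKM at 20 months and 35.1 and 64.2 FPKM at 3 months. Its ratios were 0.938 and 0.880, near the middle of all genes, of which 57.1% and 63.7% lay at or above them.

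Myog encodes myogenin, which drives the differentiation of myoblasts into myotubes. Its locus is on chromosome 1 from 134290004 to 134292548 (plus strand, 3 exons), directly after the promoter window printed above. Its levels were 6.40 and 2.49 FPKM at 20 months and 2.77 and 6.61 FPKM at 3 months. The ratios of 0.968 and 0.898 again lay near the middle of all genes, and its limma log2 fold change was -0.08 (SE 0.99, n = 2 per age, adjusted p of 1.00).

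Within a sample the makeup of the bHLH factors was similar at both ages. Myf6 made up 73.9% and 76.9% of their summed FPKM in the old samples and 76.1% and 72.0% in the young samples. Myod1 made up 16.8% and 16.3% in Old 1 and Old 2 and 17.5% and 19.5% in Young 1 and Young 2. Myog held between 6.02% and 7.85% and Myf5 at most 1.49%. A factor common to all genes cancels in a ratio within a sample, but the factor here varied with level, and Myf6 to Myog was 9.42 and 9.71 in Old 1 and Young 2 and 12.4 and 12.7 in Old 2 and Young 1. Myod1 to Myf6 was 0.227 and 0.211 in the old samples and 0.230 and 0.270 in the young samples, without overlap (exact permutation p of 0.333, the smallest this design allows). Such a lack of overlap was also seen for 58.3% of all pairs of tested genes above 0 in every sample.

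**Figure D2:**
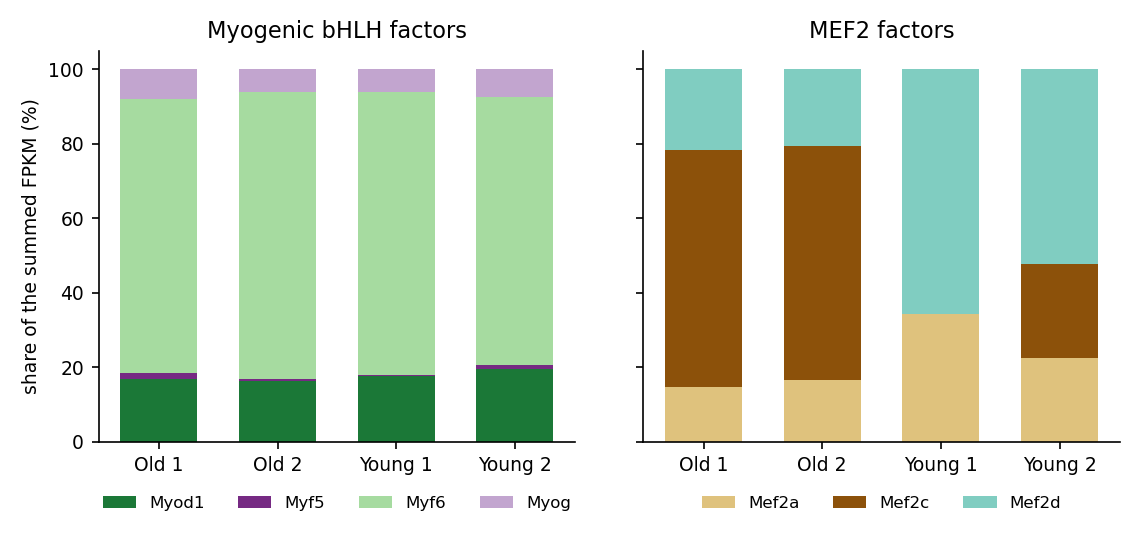
Share of each gene in the summed FPKM of the 4 myogenic bHLH factors (left) and of the 3 MEF2 factors (right), in percent on the vertical axis, with 1 stacked bar per sample. Myf6 takes between 72.0% and 76.9% of the left bars, whereas Mef2c takes 63.7% and 62.8% of the right bars in old muscle, 25.3% in Young 2 and 0% in Young 1.

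Pax7 is on chromosome 4 from 139737065 to 139832968 (minus strand). It was below 1 FPKM in all 4 samples, at 0.962 and 0.325 FPKM at 20 months and 0.303 and 0.846 FPKM at 3 months, and did not pass the filter on low values. The ratios were 1.14 and 1.07, and 32.1% and 38.5% of tested genes lay at or above them. In a limma fit with no filter on low values its log2 fold change was 0.06 (SE 0.39, n = 2 per age, adjusted p of 1.00). In whole muscle, fewer or more cells of a type and less or more RNA per cell cannot be told apart.

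Of the MEF2 genes, Mef2a is on chromosome 7 from 67231169 to 67373200 (minus strand). It measured 49.1 and 25.4 FPKM at 20 months and 21.1 and 40.7 FPKM at 3 months, so that each old sample was above the young sample of like scale. The ratios were 1.21 and 1.20, and about 1 in 4 tested genes (26.0% and 25.6%) had ratios at or above them. Mef2d, on chromosome 3 from 88141939 to 88177785 (plus strand), had the opposite order, with 72.7 and 31.8 FPKM at 20 months and 40.7 and 94.6 FPKM at 3 months. Its ratios were 0.768 and 0.782, and 79.9% and 75.7% of genes lay at or above them. The Mef2d interval is shared with the antisense gene 1700113A16Rik, listed at 29.2 and 0 FPKM at 20 months and 0.0585 and 30.7 FPKM at 3 months. The labels do not name a stranded kit, the methods do, and without strand the reads of such partners cannot be told apart.

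The ratio of Mef2d to Mef2a within a sample was 1.48 and 1.25 at 20 months and 1.93 and 2.32 at 3 months. The old and young values did not overlap (exact permutation p of 0.333). Of 6 ratios between members other than Mef2c, chosen after the values were seen, 4 did not overlap between the ages, and the same held for 58.3% of all pairs of the 9293 tested genes above 0 in every sample, a share close to that of the members.

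Mef2c encodes a MEF2 protein of mature fibers that is also used in heart, neurons and endothelium. It lies on chromosome 13 from 83504034 to 83667082 (plus strand), with 13 basic transcripts of 8 to 12 exons in the annotation of that build, the most of any member. It measured 213 and 96.7 FPKM at 20 months and 0 and 45.9 FPKM at 3 months. The lower value at 20 months exceeded the higher value at 3 months, which 1.61% of all tested genes also showed, while 1.93% showed the opposite. The Young 1 value was the 0, the single such entry among the members. The ratio of Old 1 to Young 2 was 4.65, and 34 of 10247 tested genes (0.332%) had a ratio at or above it. No ratio can be given for Old 2 to Young 1. The lower old sample, Old 2, was still 2.11 times the higher young sample, Young 2, although Old 2 had the lower scale. Old 1 was 2.21 times Old 2, close to the scale difference between these samples. With each sample scaled by its median ratio, Mef2c was at 141 in Old 1 and 148 in Old 2. On that scale it was at 0 in Young 1 and 30.01 in Young 2.

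The limma log2 fold change of Mef2c was 4.40 (SE 0.93, n = 2 per age), with an adjusted p of 0.00148. It rests on the 0 in Young 1: without that sample it was 1.63 (SE 1.72) with an adjusted p of 1.00. With a pseudocount of 0.1 in place of 1 it was 6.07. This fit used a spread pooled over all genes in place of the gene's own, and with samples scaled by their median ratio the log2 fold change of Mef2c was 4.70 (SE 1.85, limma adjusted p of 0.241).

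Whether the 0 is a true absence was not tested. Such entries were found in the lower sample of each age. At 10 FPKM or more in Young 2, 195 genes (4.18%) were listed at 0 in Young 1, and 185 genes (3.98%) at 10 FPKM or more in Old 1 were listed at 0 in Old 2, whereas the reverse was seen for 0 genes at either age. Only 6 of 2637 genes with 10 FPKM or more in each of the other 3 samples were at 0 in Young 1, and Mef2c was one of them. The same count was also 6 for Old 2, and it was 0 for Old 1 and 0 for Young 2. A locus without a symbol ends just before Mef2c, on chromosome 13 from 83442851 to 83503615. It measured 5.15, 0.547, 1.19 and 4.90 FPKM in Old 1, Old 2, Young 1 and Young 2. Its ratios were 1.05 for Old 1 to Young 2 and 0.460 for Old 2 to Young 1.

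Slow-fiber genes were also higher in old muscle. For Old 1 to Young 2 their median log2 ratio was 3.81, against 2.22 for Mef2c. Of 6 slow-fiber genes, 5 were called higher in old muscle, and all 6 were higher in both pairs of like scale. Their summed level was 1282 and 461 FPKM in Old 1 and Old 2, and 35.9 and 89.0 FPKM in Young 1 and Young 2. Myh7, the slow myosin heavy chain, measured 119 and 32.3 FPKM in the old samples against 1.48 and 3.66 in the young samples (log2 fold change 4.22, limma adjusted p of 0.00374). Tnnt1, slow troponin T, measured 204 and 74.4 against 3.56 and 6.67 FPKM (log2 fold change 4.39, limma adjusted p of 0.00148). Myl2, Tnnc1 and Tnni1 had log2 fold changes of 3.67, 3.65 and 3.59, and Atp2a2 had 2.49 and was not called. Slow fibers are a small share of a TA muscle, and the part of fiber makeup in the Mef2c values was not tested. With scaling by the median ratio all 6 slow-fiber genes were called.

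Among fast-fiber genes, 1 of 6 tested was called higher and 1 lower, both listed at 0 in an age group. Myh1, a fast myosin heavy chain, was at 1318 and 156 FPKM in Old 1 and Old 2 and was listed at 0 in both young samples. Tnnt3, fast troponin T, had a listed value of 0 in Old 1 and Old 2, against 4465 and 7509 FPKM in Young 1 and Young 2. Mylpf, the fast regulatory light chain, was at 22419 and 4152 FPKM in Old 1 and Old 2 and 4602 and 22820 FPKM in Young 1 and Young 2. Its ratios were 0.982 for Old 1 to Young 2 and 0.902 for Old 2 to Young 1. Tnni2, fast troponin I, had ratios of 1.87 and 1.18 in these pairs.

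Six4 encodes a homeobox factor that acts on muscle gene promoters through MEF3 sites. Its interval, on chromosome 12 from 73099620 to 73273988 (minus strand for Six4), is shared with Mnat1. The annotated Six4 gene is shorter than this interval, from 73099609 to 73113456. Six4 measured 7.02 and 3.03 FPKM at 20 months and 3.12 and 7.26 FPKM at 3 months, and its ratios of 0.967 and 0.974 were both near 1. Mnat1, in the same interval, had ratios of 1.43 and 1.34.

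**Figure D3:**
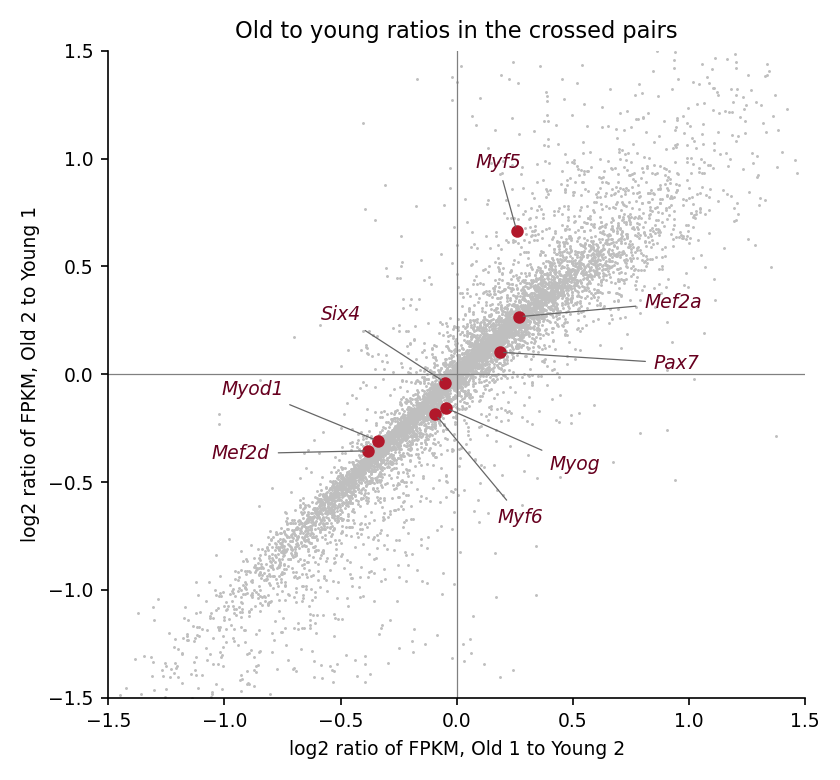
Log2 ratio of FPKM for Old 1 to Young 2 (horizontal axis) and for Old 2 to Young 1 (vertical axis); grey points are the 8926 tested genes within the axes, 367 further genes lie beyond them, and red points are the members. Mef2a, Pax7 and Myf5 lie above 0 on both axes, Myod1, Mef2d, Myf6, Myog and Six4 lie below 0 on both, and Mef2c is not drawn because its Young 1 value is 0.

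Leaving Mef2c out, 3 members had both ratios above 1 and 5 had both below 1. Over all tested genes, 42.3% were higher in both pairs and 45.2% were lower in both, so this split is close to that of all genes, and the median log2 fold change of all tested genes was -0.01.

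The partners and regulators of the members were read in the same way. Among the cofactors and relatives of Six4, including the Eya and Dach genes, 0 of 7 tested genes passed limma in either direction, and 6 were higher and 1 was lower in both pairs (median log2 fold change 0.24). Six2 had the largest value (0.70), with 7.77 and 3.09 FPKM in the old against 1.54 and 4.37 in the young samples. Eya1, a phosphatase that coactivates Six4 and its relatives, had 0.03, and Eya3 had -0.17. Tcf3, which encodes the E proteins that pair with MyoD, had a log2 fold change of 0.18, with 6.79 and 3.19 FPKM in Old 1 and Old 2 and 2.70 and 5.87 in Young 1 and Young 2.

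Among inhibitors of bHLH factors, 0 of 12 tested genes passed limma, 7 were higher and 5 lower in both pairs, and the median log2 fold change was 0.22. With scaling by the median ratio 1 of them, Hes1, was called higher (log2 fold change 1.07, SE 0.09, limma adjusted p of 0.0449). Genes of different kinds lay at the ends of the list. Hes1, a Notch-induced repressor, had 19.9 and 9.43 FPKM in the old and 4.07 and 9.08 in the young samples, the lower old sample lying just above the higher young sample (log2 fold change 1.04, SE 0.95). Bhlhe40, a repressor that can oppose MyoD, had 94.5 and 46.9 against 25.2 and 50.5 FPKM (0.88). Id1 and Id3, which bind E proteins and keep them from MyoD, had log2 fold changes of -0.63 and -0.67, with Id1 at 17.6 and 7.41 against 12.6 and 26.7 FPKM.

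Of 6 corepressors of MEF2, 0 passed limma and 3 were higher and 3 lower in both pairs (median 0.07). Hdac4, a class IIa histone deacetylase that binds MEF2, had 14.7 and 7.51 FPKM in Old 1 and Old 2 against 3.80 and 7.37 in Young 1 and Young 2 (log2 fold change 0.87, SE 0.96), while its relative Hdac7 had 11.4 and 1.86 against 2.94 and 14.2 FPKM (-0.38). The corepressor gene Ncor1 had 0.48. A broad list of coactivators of MEF2 and bHLH factors also held other regulators, such as Mapk14, Srf, Tead1 and Vgll4. Of its 18 tested genes, 0 passed limma, and 9 were higher and 9 lower in both pairs (median -0.04). The ends of this list were Vgll4 (1.09) and Stac3 (0.63), a gene of excitation-contraction coupling placed in it, on the high side. On the low side they were Vgll2 (-0.73) and Smyd1 (-0.35).

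Target genes of the myogenic factors, such as contractile and membrane genes of the fiber, were counted next. Of 18 tested, 0 were called higher and 1 was called lower, 7 were higher and 9 lower in both pairs, and the median log2 fold change was -0.06. The gene called lower was Actc1, the cardiac actin of developing and regenerating muscle, with 35.8 and 18.3 FPKM at 20 months and 372 and 2397 FPKM at 3 months. Both old samples were far below both young samples, and the limma log2 fold change was -5.15 (SE 1.01, adjusted p of 0.000252), and after scaling by the median ratio it was -5.13 (SE 0.57, limma adjusted p of 0.0618). Myl4, an embryonic and atrial light chain, had 1.71, Tnni2 had 0.57 and Mybph had -0.86, none called.

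Among satellite cell markers, 0 of 10 tested genes passed limma, and 2 were higher and 8 lower in both pairs, with a median of -0.39. Notch3, a receptor of quiescent satellite cells and of pericytes, had 6.53 and 3.29 FPKM in old and 6.55 and 12.5 in young muscle (-0.83), and Itga7, an integrin of satellite cells and fibers, had 30.3 and 15.6 against 26.9 and 53.2 FPKM (-0.77). Vcam1 (0.08) and Sdc4 (0.17) were the highest of the list. The summed level of the list was 97.6 and 47.3 FPKM in the old and 70.0 and 142 FPKM in the young samples. Itga7 was the largest part of this sum in each sample, so the sum does not measure satellite cells alone. The part of satellite cells in the Myf5 and Pax7 values was not tested.

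**Figure D4:**
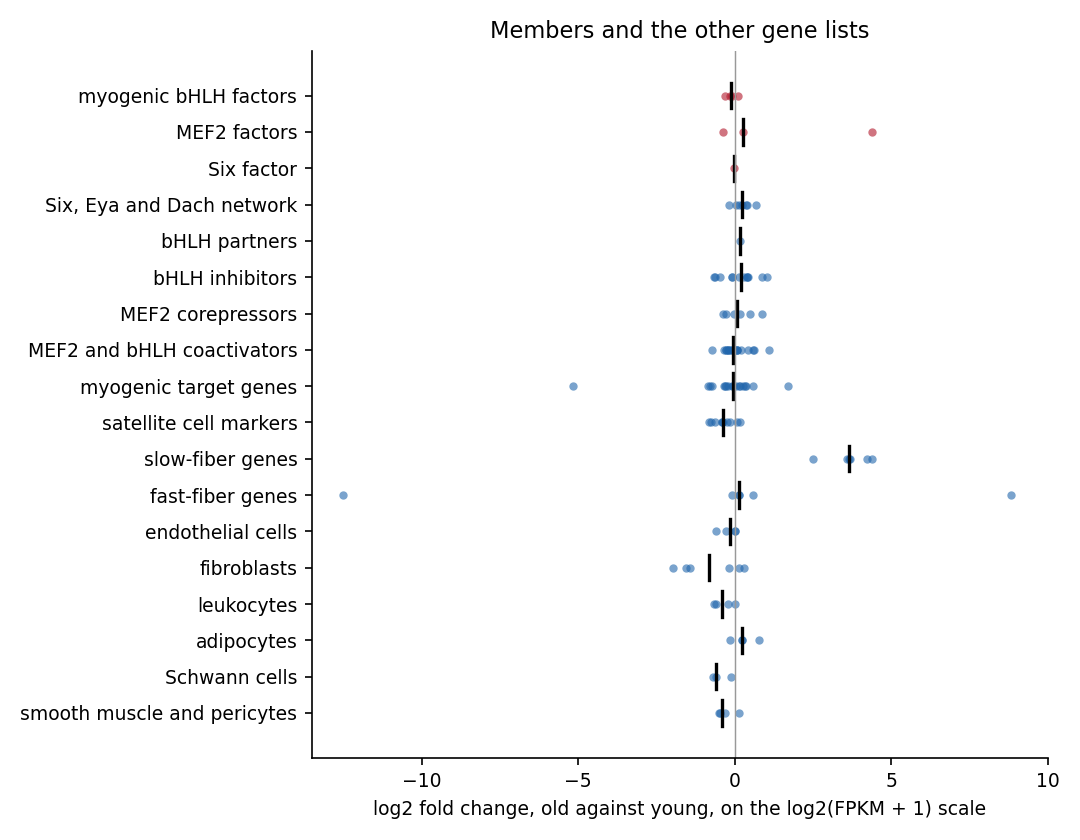
Log2 fold change of old against young muscle on the log2(FPKM + 1) scale (horizontal axis) for the tested genes of each list; each point is 1 gene, red for members and blue for other genes, and the black bar is the median of the list. The slow-fiber list stands at a median of 3.66, and the other lists have medians between -0.80 and 0.26. Mef2c is drawn at 4.40, which rests on the 0 in Young 1 and was 1.63 without that sample.

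Markers of other cell types were read for what else the tissue samples held. Of the tested markers of endothelial cells (4), fibroblasts (6), leukocytes (4), adipocytes (4), Schwann cells (3) and smooth muscle and pericytes (4), 0 passed limma, and with scaling by the median ratio 1, Col1a1, was called lower (limma adjusted p of 0.0421). The median log2 fold change was -0.14 for endothelial, -0.80 for fibroblast, -0.41 for leukocyte, 0.24 for adipocyte, -0.60 for Schwann cell and -0.39 for smooth muscle markers. The fibroblast list was split: the collagen genes Col1a1 (-1.97), Col1a2 (-1.55) and Col3a1 (-1.42) were at its low end, while Pdgfra (0.14) and Dcn (0.29) were higher in both pairs. Col1a1 was at 10.6 and 5.45 FPKM in Old 1 and Old 2 against 23.2 and 46.3 in Young 1 and Young 2. The summed markers of endothelial cells, which also use Mef2c, were at 55.7 and 28.6 FPKM in the old samples. In the young samples the sums were 35.6 and 67.9 FPKM, so the old sum was lower in both pairs of like scale. Of the 4 tested endothelial markers, 1 was higher and 2 were lower in both pairs. The part of these cells in the Mef2c values was not tested.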

How the data were processed

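The deposited tables gave FPKM per locus for each of 4 libraries of muscle mRNA. The submitters' processing notes name TopHat2 2.0.10 and Cuffdiff 2.1.1 with mm10, and the methods state that the authors trimmed reads and removed PCR duplicates first. Samples were grouped by the age in the labels. FPKM of loci with 1 symbol were summed, and locus starts were written 1-based. The tables used here end in an incomplete line within chromosome 7 or 8 in their order, so genes beyond that point were not analysed here. Only the 20605 loci common to the 4 tables were used. Shares of tested genes, or of genes above 0, are within these loci. Whole reads could not be recovered.

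Genes reaching 1 FPKM in 2 or more samples were tested with limma 3.58.1 (R 4.3.3, trended empirical Bayes) on log2(FPKM + 1), with Benjamini-Hochberg adjustment and a threshold of 0.05. Fold changes on this scale understate those of low genes. Single values were compared with exact two-sided permutation tests. The scripts were tested on simulated data. Replicate numbers were not used to pair the samples in the main fit. The deviations of same-numbered samples correlated at -0.88. Because these deviations carry the scale of the samples, this cannot show whether the numbers stand for pairs. Named genes were all members, any list gene past the threshold, and the 2 highest and 2 lowest tested genes by log2 fold change of each list. A few of these are given by their count only, and some are not reported here. Members and lists were chosen with earlier results of these data known. Alternatives changed the pseudocount, filter, scaling, variance trend, block and samples. Promoters were matched by symbol for 7 of 9 members. Figures were drawn with matplotlib 3.10.9.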

Additional observations from a re-analysis of the deposited data

How the results depend on the processing

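As reported, limma called 18 genes higher and 13 lower in old muscle, and 1 member, Mef2c. With no filter on low values limma called 0 higher, 0 lower and 0 members (23, 29 and 0 at an unadjusted p below 0.05), and when each of the 4 samples had to reach 1 FPKM it called 4, 2 and 0, Mef2c then being untested. Scaling to the same median left 0 members called and quantile normalization gave 119, 188 and 0. Scaling by the median ratio, chosen after seeing the data, gave 61, 75 and 0. The replicate block by label number gave 2, 3 and 0, and a replicate block with crossed numbers gave 2812, 3374 and 3. A pseudocount of 0.1 and a fit without the variance trend kept Mef2c called. The limma adjusted p of Mef2c was 0.345 with the same median, 0.185 with quantile normalization, 0.241 with the median ratio, 0.116 with the crossed block, and 1.00 with no filter and with the label block. Leaving out 1 sample at a time gave 2 to 6 genes called higher, 3 to 10 lower and 0 to 1 members. Mef2c was then called without Young 2 (log2 fold change 7.18, adjusted p of 0.0082) and not without Old 1 (3.83, 1.00), Old 2 (4.97, 0.933) or Young 1 (1.63, 1.00). The sign of the other tested members followed which sample was left out, with log2 fold changes from -0.80 to 0.21 for Myod1, -0.30 to 0.54 for Myf5, -0.61 to 0.34 for Myf6, -0.62 to 0.47 for Myog, -0.20 to 0.72 for Mef2a, -0.96 to 0.24 for Mef2d and -0.54 to 0.47 for Six4. A group of 1 sample was assumed to vary like the other group. No alternative with all 4 samples changed the sign of a member. With 2 samples an age and no read counts, the calls on members depended on how the scale of the samples was treated.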
